A study of Mus musculus with 9 samples.

Results

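Sarcomere and Z-disc genes encode the contractile apparatus of striated muscle, and 48 of them were examined here for accessible chromatin in the early mouse heart region. A gene counted as having an accessible region when at least 1 distinct region in the deposited list of control regions carried its symbol. The genes were chosen for the proteins they encode, with earlier results of these data known, and the rule used no measured value. Of the 48 genes, 18 had at least 1 assigned region and 30 had none. The 18 genes held 29 of the 17164 distinct regions in the list.

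The study asked how the LIM-homeodomain factor Isl1 and the chromatin remodeler Brg1 act on chromatin in heart progenitors. ATAC-Seq, in which the Tn5 transposase cuts and tags exposed DNA, was done on pharyngeal mesoderm and hearts dissected at E8.75 from mouse embryos, the stage with 6 somites. Its 9 libraries comprised 3 from wild-type embryos (the controls), 3 from Isl1-/- embryos that lack Isl1, and 3 from Isl1Cre+/-/Brg1fl/fl embryos, in which the Cre recombinase deletes Brg1 in cells that have expressed Isl1. The labels gave no strain or sex. All values below come from 1 list of regions common to the 3 control libraries, which gives positions in mm9 and neither peak heights nor values for single libraries. The 2 mutant groups were not analyzed here. With 1 list there is no replicate error and no test was run, so counts are given as descriptions, the main ones beside the share over all coding genes. Intervals are 95% Wilson intervals, cover counting error over genes only and treat neighboring genes as independent, and the sequencing depth is unknown. The absence of a gene from the list means that no region shared by the control libraries was assigned to it, not that its chromatin was closed, and in whole tissue a small number of accessible cells and weak accessibility in many cells cannot be told apart.

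The labelled tissue was checked against marker genes. Of the marker genes set for each cell type, 7 of 12 for heart, 4 of 6 for pharyngeal tissue, 3 of 5 for endothelium, 2 of 6 for skeletal muscle, 2 of 3 for blood, 2 of 3 for neural tissue and 2 of 3 for endoderm had an assigned region, compared with 49.3% of coding genes. The interval of each list included that share (20.8 to 93.9% for 2 of 3 genes), so these counts do not tell which cell types were present. Among the heart markers, Isl1, Gata4, Gata5, Tbx20, Hand2, Mef2c and Myocd had a region, while Nkx2-5, Tbx5, Hand1, Gata6 and Smarcd3 had none assigned. A region centered 212 bp from a Gata6 start was assigned to 1010001N08Rik. The part that each cell type plays in the regions below was not tested.

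As background, a sarcomere is built of thick filaments, which are bundles of myosin with its light chains and myosin-binding protein C, sliding past thin filaments of actin, tropomyosin and the troponin complex. Thin filaments are anchored in the Z-disc by alpha-actinin and its partners, thick filaments are linked at the M-band by myomesins, and the giant protein titin spans from one to the other. The first heartbeats depend on these proteins, and many of the genes exist in versions used mainly by heart, mainly by skeletal muscle, or by cells of many kinds.

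Fewer than 1 in 2 sarcomere and Z-disc genes had an assigned region. The share was 37.5% (18 of 48, interval 25.2 to 51.6%), compared with 49.3% of the 21027 coding genes. The interval of the gene set included the value for all genes. An assigned region within 1 kb of the start was found for 10 genes (20.8%), compared with 40.6% of coding genes. Measured instead from the starts in the GENCODE annotation of the same genome, and whatever gene the list assigned, 11 of the 48 had a region less than 1 kb from a start (46.9% of 18115 coding genes) and 15 had a region that overlapped the gene (50.8%). Most genes with a region had just 1. Of the 18, 14 had 1 region, Lmod2 had 2, Myom2 and Pdlim5 had 4 each, and Nebl had 5.

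**Figure D1:**
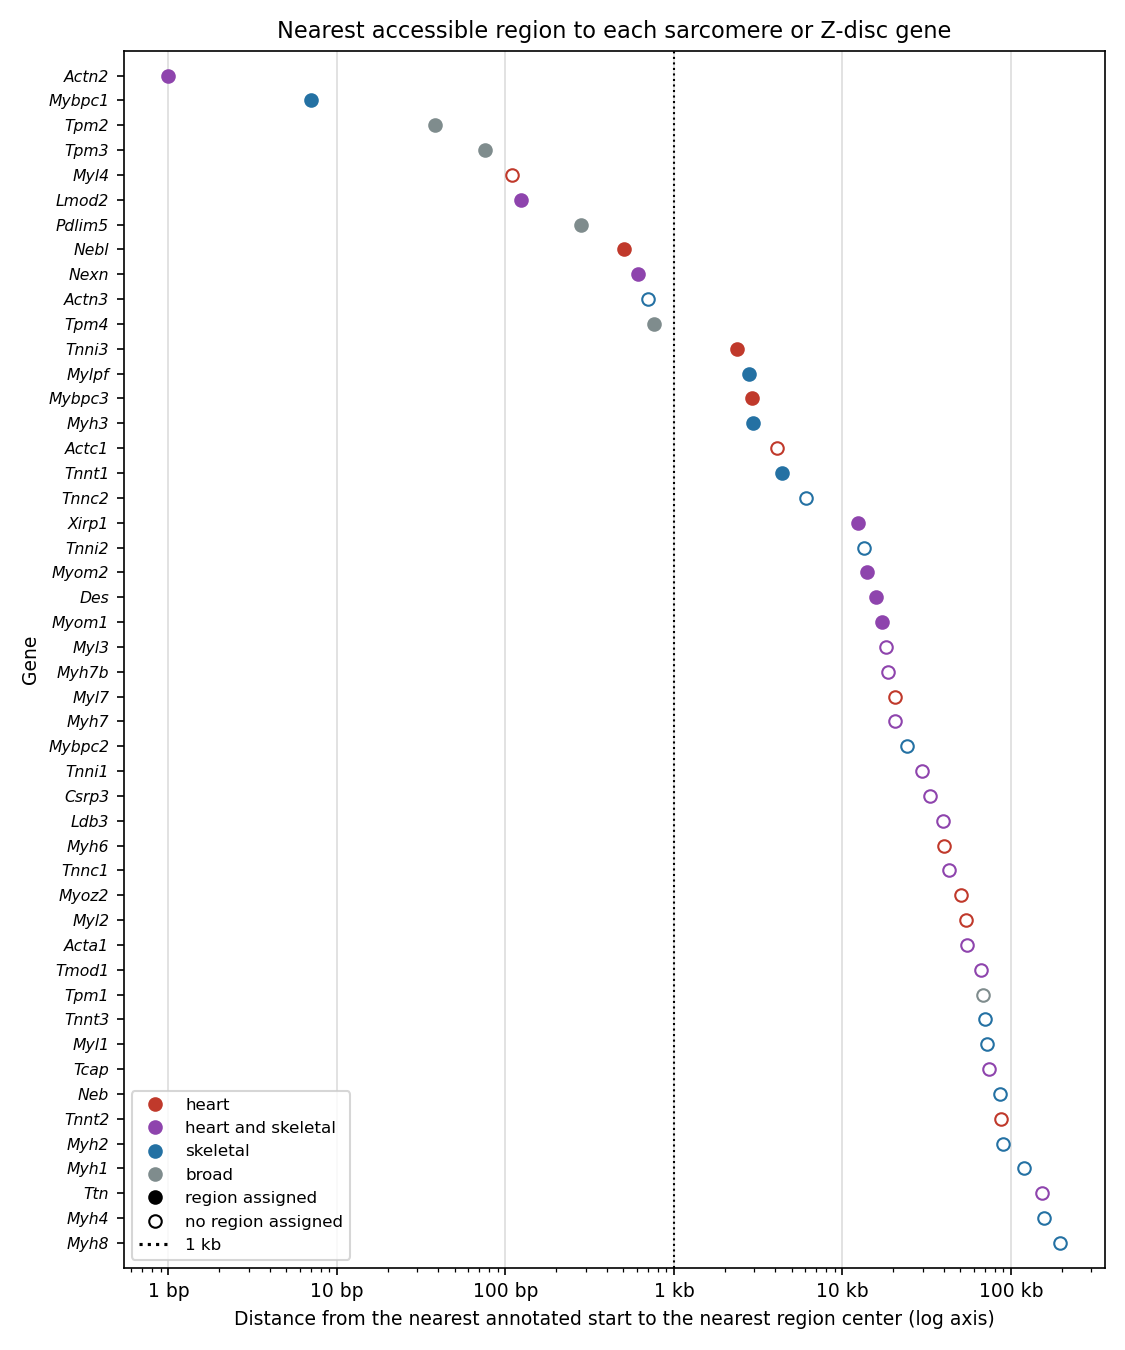
Distance in base pairs (log axis) from the nearest annotated start of each of the 48 genes to the center of the nearest accessible region, with filled points for genes that have an assigned region and colors for muscle type. Actn2 and Mybpc1 sit at the left with a region on the start, 11 genes lie left of the 1 kb line, and Ttn and 3 skeletal myosin heavy chain genes lie beyond 100 kb.

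The distance to the nearest region shows the same spread in finer steps. The median over the 48 genes was 18340 bp, with a range from 1 to 195830 bp, compared with a median of 4567 bp over coding genes. A region lay within 10 kb of a start for 18 genes (37.5%, compared with 54.3% of coding genes) and within 50 kb for 33 (68.8%, compared with 74.3%). The plot of nearest regions shows that the genes fell on both sides of the general median, with a group at the start itself and a long tail. Among the 30 genes without an assigned region the median was 46791 bp, close to the 49073 bp of the 8915 coding genes without one.

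Most regions of these genes lay away from starts. Their median width was 970 bp, with a range from 592 to 2366 bp, compared with 1123 bp over all regions. Of the 29 regions, 10 (34.5%) were centered within 1 kb of the assigned start, compared with 52.9% of all regions, and 14 (48.3%) lay beyond 10 kb, compared with 39.3%. Width differed with position, as it did in the list as a whole. Near starts the median was 1538.5 bp over 10 regions (1294 bp in the whole list), and elsewhere it was 945 bp (950 bp in the whole list).

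**Figure D2:**
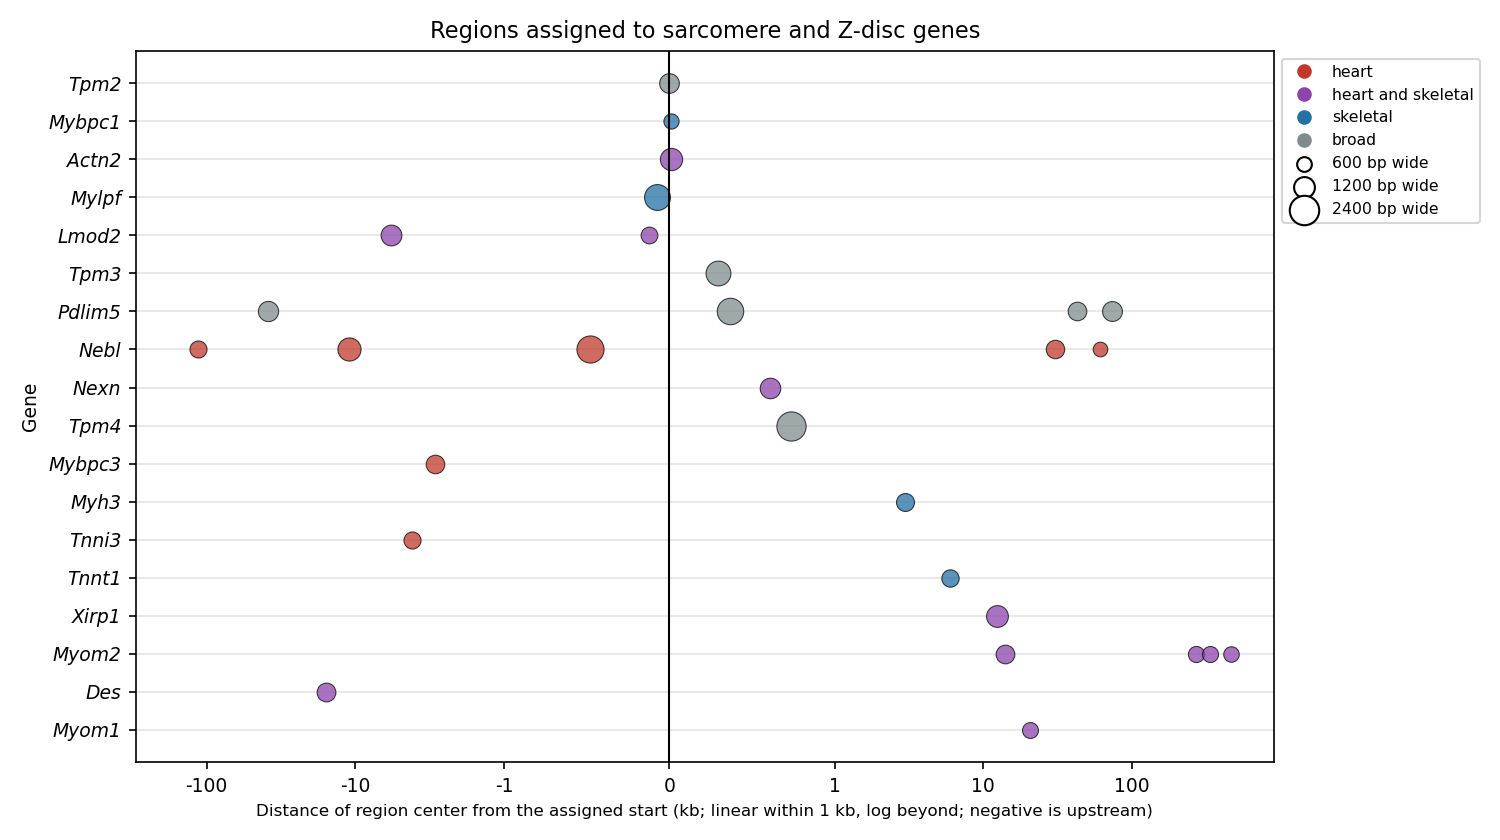
Distance in kb of each of the 29 regions from the start of its gene, linear within 1 kb and log beyond, with negative values upstream, point area rising with region width and colors for muscle type. Points cluster at the start for Tpm2, Mybpc1, Actn2, Mylpf and Lmod2, and Nebl, Pdlim5 and Myom2 have regions spread far from the start.

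The DNA of 3 accessible starts and of 1 distal region is shown here, because Actn2, Mybpc1 and Lmod2 had the region centers closest to a GENCODE start among genes used mainly by muscle that had an assigned region, and Lmod2 has a second region upstream. Actn2 is the sarcomeric alpha-actinin, Mybpc1 a myosin-binding protein and Lmod2 an actin nucleator. Each line gives 150 bases from mm9 on the strand of the gene, either the bases just before the start or the center of a region, and capitals would mark a match to the TATA box, MEF2, CArG or GATA letters described further on. No such match was present in these 4.
Actn2 before the start (chr13:12433028-12433177, minus strand): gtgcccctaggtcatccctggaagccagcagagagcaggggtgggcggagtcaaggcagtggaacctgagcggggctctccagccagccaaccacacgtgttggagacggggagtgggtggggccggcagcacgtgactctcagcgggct
Mybpc1 before the start (chr10:88067898-88068047, minus strand): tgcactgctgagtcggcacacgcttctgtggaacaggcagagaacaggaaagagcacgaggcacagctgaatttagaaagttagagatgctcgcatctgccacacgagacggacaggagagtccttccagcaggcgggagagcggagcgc
Lmod2 before the start (chr6:24547621-24547770, plus strand): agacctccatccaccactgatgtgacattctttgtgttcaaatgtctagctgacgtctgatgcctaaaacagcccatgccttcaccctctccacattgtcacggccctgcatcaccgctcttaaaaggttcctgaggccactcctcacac
Lmod2 center of the upstream region (chr6:24541928-24542077, plus strand): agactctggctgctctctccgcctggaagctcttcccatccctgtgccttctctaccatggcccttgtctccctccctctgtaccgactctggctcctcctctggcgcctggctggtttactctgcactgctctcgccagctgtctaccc

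The windows before Actn2, Mybpc1 and Lmod2 lay wholly inside the accessible region of the gene. They held 4.67, 6.0 and 2.0 CpG dinucleotides per 100 bp. The Nexn region began just inside the gene and did not reach the bases before its start.

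Split by protein class, the share was lowest for thick filament genes and highest for the titin and M-band genes, of which there are very few. A region was assigned to 4 of 17 thick filament genes (23.5%, interval 9.56 to 47.3%), 6 of 17 thin filament genes (35.3%, interval 17.3 to 58.7%), 6 of 11 Z-disc genes (54.5%, interval 28.0 to 78.7%) and 2 of 3 titin and M-band genes (66.7%, interval 20.8 to 93.9%). The intervals overlapped one another, so the order of the classes is not established. Z-disc genes also held the most regions, 13 of the 29, of which 9 belonged to Nebl and Pdlim5.

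**Figure D3:**
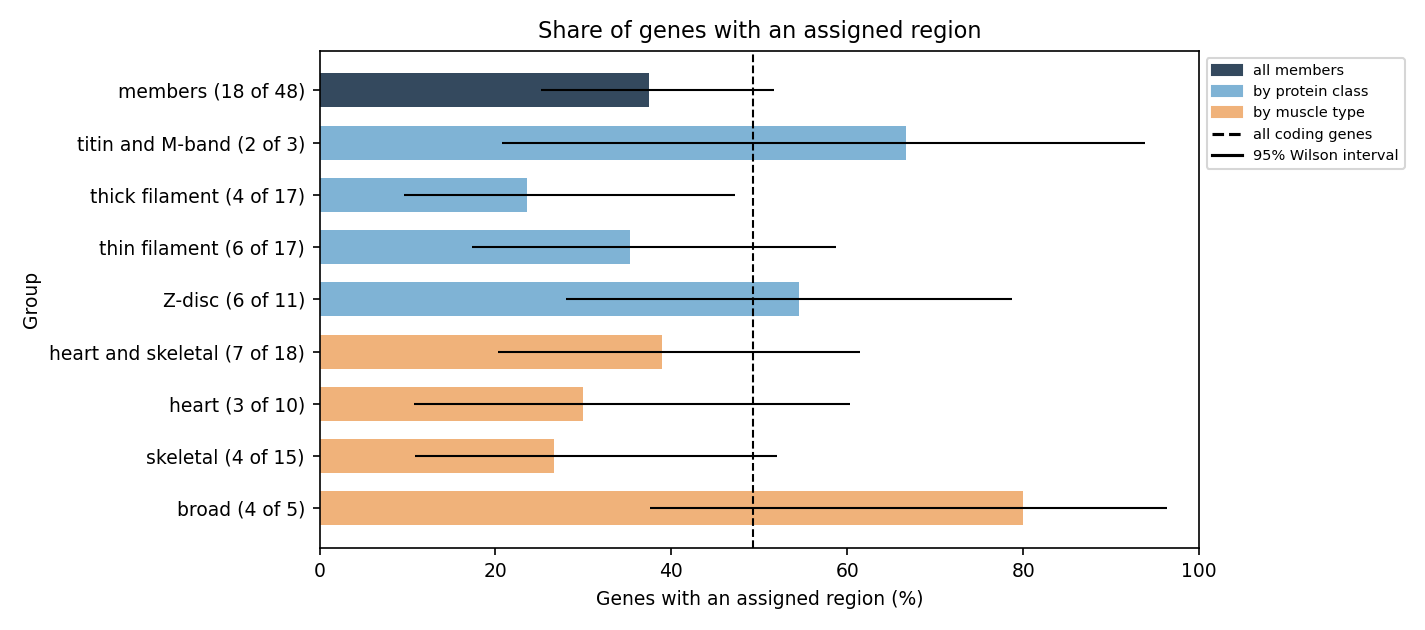
Percent of genes with an assigned region for all 48 genes, for each protein class and for each muscle type, with bars from 0, lines for the 95% Wilson interval and a dashed line at 49.3%, the share over all coding genes. The broad genes reach 80% and the thick filament genes 23.5%, and the intervals of the groups overlap.

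Among thick filament genes, regions were assigned to Mybpc1, Mybpc3, Myh3 and Mylpf, and none to the main cardiac myosins. Mybpc1, which encodes the slow skeletal form of myosin-binding protein C, had a region of 641 bp at chr10:88067570-88068210, centered 7 bp inside its start. Mybpc3, the cardiac form, had a region of 958 bp at chr2:90954921-90955878, 2902 bp upstream of its start. The center of that region lay in an exon of the neighboring gene Sfpi1, which encodes the blood factor PU.1. Myh3, the embryonic myosin heavy chain, had a region of 896 bp in an intron at chr11:66894349-66895244, 2994 bp inside the gene. For Mylpf, the fast skeletal regulatory light chain, a region of 1854 bp was listed 72 bp upstream of its start, at chr7:134351415-134353268. That position was 2781 bp upstream of the GENCODE start of Mylpf and 359 bp from a start of Tbc1d10b, so the region may be counted for either gene. It was the exception among the 29 regions, since for the other 28 the nearest coding start was that of the assigned gene.

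The myosin genes of the beating heart had no region of their own. Myh6, the alpha heavy chain of atrial and adult muscle, lay 39956 bp from the nearest region, which was assigned to Efs. Myh7, the beta heavy chain of the embryonic ventricle, lay 20620 bp from a region of Ngdn. Both sat in a stretch of 86991 bp without a region (chr14:55546379-55633371), a length reached by 44.4% of all gaps between neighboring regions. The ventricular light chain genes Myl2 and Myl3 lay 54298 and 18162 bp from the nearest region, and the atrial regulatory light chain gene Myl7 lay 20492 bp from one. Myl4, the atrial and embryonic essential light chain, was different. A region of 1544 bp centered 109 bp upstream of a Myl4 start was assigned to the gene next to it, Cdc27.

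The skeletal heavy chain cluster lay in the longest of the gaps measured here. Myh2, Myh1, Myh4 and Myh8, which encode the fast adult and perinatal heavy chains, lay in 839953 bp without a region, at chr11:66895244-67735198, and 1.91% of gaps were at least as long. The nearest region to each of these genes was the Myh3 intron region, at 89733 bp for Myh2, 118758 bp for Myh1, 156518 bp for Myh4 and 195830 bp for Myh8. Distances in this cluster are therefore not independent of one another. The other thick filament genes without a region were Myh7b, a heavy chain found at low level in heart and slow muscle (18518 bp), Myl1, the fast skeletal essential light chain (72104 bp), and Mybpc2, the fast form of myosin-binding protein C (24047 bp).

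Among thin filament genes, Tpm2, Tpm3, Tpm4 and Lmod2 had a region within 1 kb of the assigned start. Tpm1, the 8 troponin genes and both sarcomeric actins had none within 1 kb of a coding start. Tpm2 had a region of 1070 bp centered 3 bp upstream of its start, at chr4:43535895-43536964. Tpm3 had a region of 1708 bp at chr3:89882884-89884591, centered 294 bp past the assigned start and 76 bp from a GENCODE start. Both of these starts are internal. The gene begins upstream, at 89876571, and the region did not reach that first start. Tpm4 had the widest region of the set, 2366 bp at chr8:74658742-74661107, centered 733 bp inside its start. Tropomyosins wind along actin filaments, and these genes make nonmuscle forms as well as muscle ones. Tpm1, which makes the main tropomyosin of heart muscle along with nonmuscle forms, stood apart from its relatives, with no region and 68562 bp to the nearest one. Lmod2, which nucleates and lengthens actin filaments in heart, had a region of 780 bp centered 124 bp upstream of its start, at chr6:24547258-24548037, and a second of 1196 bp at chr6:24541406-24542601, 5768 bp upstream.

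Of the 8 troponin genes, 2 had an assigned region. Tnni3, the cardiac inhibitory subunit, had a region of 810 bp at chr7:4477803-4478612, 4162 bp upstream of the assigned start and 2376 bp from a GENCODE start, 69 bp from the start of an antisense transcript, Gm15873. Tnnt1, the slow skeletal subunit that binds tropomyosin, had a region of 837 bp within the gene at chr7:4461159-4461995, 6000 bp from the assigned start and within 1 kb of the start of a Tnnt1 transcript that is not annotated as coding. Tnnt2, the cardiac form and an early marker of heart muscle, had no region, and the nearest lay 87660 bp away. The calcium-binding subunit of heart and slow muscle, Tnnc1, lay 42967 bp from a region, and Tnni1, the inhibitory subunit of the embryonic heart and slow muscle, lay 29850 bp from one. Among the fast skeletal troponins, Tnnc2 lay 6092 bp from a region of Snx21, Tnni2 lay 13455 bp from a region of Syt8, and Tnnt3 lay 70483 bp from the same Syt8 region.

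Actc1, the actin of the embryonic heart, had no assigned region, but a region of 712 bp lay 4108 bp upstream of a start, at chr2:113883037-113883748, and was assigned to C130080G10Rik. Acta1, the skeletal actin that the heart also makes, lay 54578 bp from the nearest region. Tmod1, which caps the pointed ends of thin filaments, lay 66546 bp from one. Neb, the long template protein of skeletal thin filaments, lay in a gap of 350778 bp (chr2:51928896-52279675), a length reached by 9.79% of gaps.

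Titin and the myomesins had no region within 1 kb of a start. Ttn, the gene of titin, is 278568 bp long, and it lay wholly in a gap of 497140 bp (chr2:76512341-77009482), a length reached by 5.47% of gaps. Its nearest region, assigned to Fkbp7, was 153101 bp from a start. Myom1 had a region of 704 bp in an intron at chr17:71389042-71389745, 20496 bp inside the gene. Myom2 had a region of 970 bp whose center was in an exon at chr8:15071062-15072031, 13893 bp inside the gene. Its other 3 regions lay beyond the gene, at 269572, 332738 and 462327 bp from the start, and were 668 to 723 bp wide. For each of them the nearest coding start was that of Myom2. Any link of these far regions to Myom2, and whether they lie in repeated sequence, was not tested.

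Among Z-disc genes, Actn2, Nexn, Nebl and Pdlim5 had an assigned region within 1 kb of the start. Actn2, the sarcomeric alpha-actinin of heart, had a region of 1369 bp centered 7 bp inside its start, at chr13:12432308-12433676. Nexn, an actin-binding protein of the Z-disc, had a region of 1170 bp at chr3:151928090-151929259, centered 610 bp inside the gene. Nebl, the short nebulin relative of heart Z-discs, had a region of 2037 bp at its most upstream start (chr2:17652159-17654195, centered 482 bp upstream). It had regions in introns at 30160 and 60802 bp inside the gene. It also had regions 10988 and 113615 bp upstream. Pdlim5, a PDZ and LIM domain adaptor found in many tissues, had a region of 1938 bp at its start (chr3:142057323-142059260, centered 369 bp inside), intronic regions at 42609 and 73451 bp, and 1 region 38719 bp upstream. Both genes had a wide region at the start, and their distal regions ranged from 592 to 1480 bp.

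Des and Xirp1 had a region away from the start. Des, the muscle intermediate filament protein desmin, had a region of 980 bp 15718 bp upstream, at chr1:75340660-75341639, and no region at its start. Xirp1, an actin-binding protein of intercalated discs, had a region of 1314 bp just past the end of the gene, at chr9:119919752-119921065, 12308 bp from its start. Of the Z-disc genes without an assigned region, Actn3, the alpha-actinin of fast skeletal fibers, had a region of 1139 bp centered 702 bp upstream of its start that was assigned to Zdhhc24. Ldb3, which encodes the Z-disc adaptor Cypher, had a region inside the gene, 39449 bp from a start, assigned to 9230112D13Rik. The titin cap gene Tcap, the LIM protein gene Csrp3 and the calsarcin gene Myoz2 lay 73939, 33202 and 50615 bp from the nearest region.

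By muscle type, the share was highest for the genes used by many cell types. Of the 5 broad genes (Tpm1 to Tpm4 and Pdlim5), 4 had a region (80%, interval 37.6 to 96.4%). Each of these had one within 1 kb of the assigned start, and the median distance to a region was 280 bp. A region was assigned to 3 of 10 genes used mainly by heart (30%, interval 10.8 to 60.3%), 7 of 18 used by heart and skeletal muscle (38.9%, interval 20.3 to 61.4%) and 4 of 15 used mainly by skeletal muscle (26.7%, interval 10.9 to 52.0%). The intervals of all these groups overlapped, so no order of muscle types is established. For heart and for skeletal genes, the median distances to a region were 12300 and 24047 bp. Within 1 kb of a GENCODE start, 2 of the 10 heart genes (Nebl and Myl4) and 2 of the 15 skeletal genes (Mybpc1 and Actn3) had a region. Nebl has 6 annotated starts and Myl4 has 5, and in each the region lay at the most upstream one. CpG frequency over the starts ran from 0.60 to 7.39 per 100 bp in Nebl and from 0.50 to 5.89 in Myl4. Which of these starts is used in heart was not tested. The heart genes held 7 regions, 5 of them in Nebl.

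Most sarcomere and Z-disc genes start in DNA with little CpG. CpG islands are stretches rich in the dinucleotide CpG that cover the starts of most widely used genes. The frequency was counted within 500 bp of each GENCODE start, and a gene was given the highest value over its starts. The median over the 48 genes was 2.05 per 100 bp, compared with 5.0 over coding genes. When coding genes were ranked by this value and divided into 10 equal groups, 38 of the 48 genes fell into the 4 lowest groups and 10 into the other 6.

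Pooled over the low and over the high CpG groups, the shares of these genes were close to those of coding genes in general. In the 4 lowest groups, 4 of 38 had a region less than 1 kb from a start (10.5%, interval 4.17 to 24.1%), compared with 11.4% of coding genes. The mix inside these groups was unlike, since groups 1 to 4 held 2, 9, 15 and 12 of the genes. Group 3 had such a region in 1 of 15 (8.61% of coding genes) and group 4 in 3 of 12 (35.1%). In the 6 highest, 7 of 10 had one (70%, interval 39.7 to 89.2%), compared with 70.6%. The 4 low-CpG genes with such a region were Mybpc1 (1.70 per 100 bp), Lmod2 (2.20), Actn3 (2.80) and Nexn (3.40). For Actn3 and Nexn the region did not reach the start itself, and that of Actn3 was assigned to Zdhhc24. The 7 others were Actn2 (4.70), Myl4 (5.89), Tpm2 (6.09), Tpm3 (7.09), Nebl (7.39), Tpm4 (7.89) and Pdlim5 (9.59). Des (6.99), Tpm1 (7.49) and Tmod1 (7.59) were rich in CpG and had no region at a start. The lowest values belonged to Myom2 (0.30), Tnnc1 (0.50), Tnnt3 (0.90) and Myh6 (1.0), and none of these had a region at a start.

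**Figure D4:**
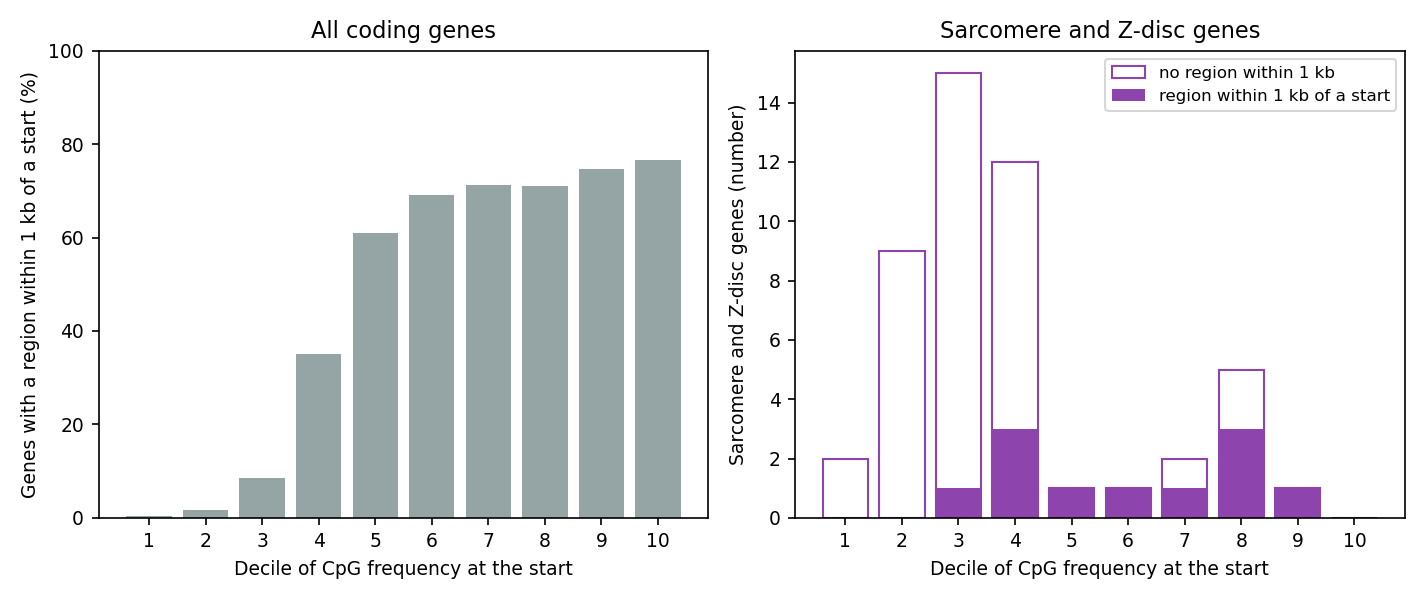
Left, percent of coding genes with a region within 1 kb of a start in each of 10 equal groups ranked by CpG frequency, with bars from 0. Right, the number of sarcomere and Z-disc genes in each group, with the part that has a region filled. The share over coding genes climbs from 0.386% in group 1 to 76.6% in group 10, and 38 of the 48 genes sit in groups 1 to 4.

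CpG content was lowest in the protein class with the lowest share, but it was not highest in the class with the highest share. Median CpG frequency was 1.60 per 100 bp for thick filament genes, 2.10 for thin filament genes, 2.10 for titin and M-band genes and 2.80 for Z-disc genes. The 5 broad genes had a median of 7.49, compared with 1.65 for heart genes and 1.70 for skeletal genes.

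Sequence motifs of muscle promoters were searched next, in the 250 bases before and 50 bases after the start of the longest coding transcript, on both strands. The letters were TATAAA for the TATA box, AGATAA for GATA factors, CATTCC for the MCAT element of TEAD factors, GGGCGG for the GC box and CANNTG for the E-box of MyoD-type factors. The 10-letter motifs of MEF2 and of serum response factor (the CArG box) were matched by their consensus. A match states that these letters occur in the window and not that a factor binds there. Only AGATAA was counted for GATA, so TGATAA, which occurs in the Myl7 and Mybpc3 lines further on, was not counted.

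MEF2 and CArG letters stood before a larger share of these genes than of coding genes in general. MEF2 letters occurred in 8 of 48 (16.7%, compared with 2.99% of coding genes), at Ttn, Myh1, Myh8, Myl2, Mybpc3, Myom2, Myoz2 and Xirp1. CArG letters occurred in 8 (16.7%, compared with 1.40%), at Myl3, Myl7, Actc1, Acta1, Neb, Myom1, Myom2 and Ldb3. Either was present in 15 genes (31.2%, compared with 4.32%), and Myom2 had both. In the 4 lowest CpG groups, MEF2 letters occurred in 21.1% and CArG letters in 21.1% of these genes, compared with 5.45% and 1.84% of coding genes there. MCAT letters were present in 12 genes (25.0%, compared with 13.3%), E-box letters in 41 (85.4%, compared with 67.9%), GATA letters in 4 (8.33%, compared with 9.81%) and the GC box in 14 (29.2%, compared with 47.7%). TATA boxes were present in 10 genes (20.8%, compared with 12.9%), and 8 of those were among the 15 skeletal genes. TATA and MEF2 letters overlapped in 2 of the genes and in 124 coding genes, and CArG letters overlapped neither of them in the set.

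Motif letters were also counted by whether a region lay at the start. Of the 11 genes with a region less than 1 kb from a start, 0 had MEF2, CArG, TATA or MCAT letters in the window, compared with 1.58%, 1.12%, 6.07% and 11.2% of the 8500 coding genes with such a region, and at these shares 11 genes are too few to show a lack. E-box letters occurred in 8 of the 11, a GC box in 6 and GATA letters in 1. For Tpm3, the window was at another start than its region. Of the 37 genes without such a region, 8 had MEF2 and 8 had CArG letters (21.6% each, compared with 4.23% and 1.64% of coding genes without one), 10 had TATA (27%, compared with 18.9%) and 12 had MCAT letters (32.4%, compared with 15.2%). In a window of 1000 bases before to 100 after the start, TATA letters occurred in 5, MCAT in 3, MEF2 in 1 and CArG in 1 of the 11 genes, and in 22, 28, 14 and 9 of the 37. CpG content moved with this split, since 7 of the 11 and 3 of the 37 were in the 6 highest CpG groups, and its part in the split was not tested. The lines below give the 150 bases before the start for 6 genes with MEF2 or CArG letters and no region there, from mm9 on the strand of the gene, with MEF2, CArG, TATA and GATA matches in capitals and MCAT matches left in lower case.
Myl7 (chr11:5798786-5798935, minus strand): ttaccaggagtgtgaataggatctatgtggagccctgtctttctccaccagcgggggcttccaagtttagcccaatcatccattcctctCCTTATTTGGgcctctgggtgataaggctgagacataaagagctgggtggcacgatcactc
Actc1 (chr2:113878624-113878773, minus strand): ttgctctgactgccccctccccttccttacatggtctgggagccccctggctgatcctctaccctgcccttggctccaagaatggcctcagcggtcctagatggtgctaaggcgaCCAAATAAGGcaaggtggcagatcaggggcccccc
Acta1 (chr8:126418652-126418801, minus strand): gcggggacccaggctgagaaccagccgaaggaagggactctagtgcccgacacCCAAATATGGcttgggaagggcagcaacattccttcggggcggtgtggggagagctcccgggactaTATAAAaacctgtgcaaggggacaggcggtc
Mybpc3 (chr2:90958151-90958300, plus strand): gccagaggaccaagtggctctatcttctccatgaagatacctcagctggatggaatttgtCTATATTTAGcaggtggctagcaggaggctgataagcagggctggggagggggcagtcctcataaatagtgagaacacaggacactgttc
Myoz2 (chr3:122737909-122738058, minus strand): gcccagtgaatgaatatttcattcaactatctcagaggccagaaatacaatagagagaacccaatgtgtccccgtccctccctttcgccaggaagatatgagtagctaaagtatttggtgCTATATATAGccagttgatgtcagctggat
Myom2 (chr8:15057503-15057652, plus strand): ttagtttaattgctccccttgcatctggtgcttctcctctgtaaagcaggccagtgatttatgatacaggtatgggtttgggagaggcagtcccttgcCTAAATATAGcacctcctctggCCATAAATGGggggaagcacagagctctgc

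The capitals mark a CArG match at bases -61 to -52 of Myl7 and -35 to -26 of Actc1, counted back from the base before the start as -1. In Acta1 they mark a CArG match at -97 to -88 and a TATA box at -31 to -26. MEF2 matches stood at -90 to -81 in Mybpc3, -30 to -21 in Myoz2 and -52 to -43 in Myom2, where a CArG match followed at -30 to -21. The windows of Mybpc3 and Myom2 held no CpG, and that of Acta1 held 4.67 per 100 bp.

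Regions away from starts were not marked by the same letters. In the central 300 bp of the 19 regions more than 1 kb from the assigned start, MEF2, CArG and TATA letters occurred in 0, compared with 1.98%, 1.5% and 9.62% of the 8081 such regions in the list. At these shares 19 regions are too few to show a lack. GATA letters occurred in 3 (15.8%, compared with 14.5%), 1 in Nebl and 2 in Myom2. MCAT letters occurred in 5 (26.3%, compared with 22.2%), E-box letters in 14 (73.7%, compared with 76.1%) and the GC box in 4 (21.1%, compared with 19.3%). The centers of 3 such regions are given as 150 bases from mm9 on the strand of the gene, with GATA letters in capitals, for the heart Z-disc gene with the most regions, for desmin and for the CpG-rich region next to Xirp1.
Nebl intron region (chr2:17591818-17591967, minus strand): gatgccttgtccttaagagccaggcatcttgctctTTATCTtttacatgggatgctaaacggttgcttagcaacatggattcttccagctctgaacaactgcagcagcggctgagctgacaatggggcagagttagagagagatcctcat
Des upstream region (chr1:75341074-75341223, plus strand): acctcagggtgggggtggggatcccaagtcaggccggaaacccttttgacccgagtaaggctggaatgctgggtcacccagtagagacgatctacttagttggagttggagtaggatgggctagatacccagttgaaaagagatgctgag
Xirp1 region past the gene (chr9:119920333-119920482, minus strand): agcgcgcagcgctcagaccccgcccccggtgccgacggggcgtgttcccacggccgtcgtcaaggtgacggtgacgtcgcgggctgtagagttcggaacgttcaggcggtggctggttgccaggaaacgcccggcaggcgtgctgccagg

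The Nebl match, at bases 36 to 41 of the line, is the GATA motif read from the opposite strand. The line for Xirp1 held 14.0 CpG per 100 bp and its whole region 5.56, while its own start had 2.30. The Des line held 2.0.

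Sarcomeric genes were compared with nonmuscle and smooth muscle relatives of the same protein families, which do related work in the cytoskeleton of most cells. Over 9 families, 6 of 26 sarcomeric genes had a region within 1 kb of a GENCODE start, and 14 of 23 relatives did, compared with 46.9% of coding genes. Tropomyosins were not among the 9 families, although Tpm2, Tpm3 and Tpm4 had such a region, and the broad gene Pdlim5 was counted as sarcomeric. The median distance to a region was 20556 bp for the sarcomeric genes and 317 bp for the relatives, and median CpG frequency was 1.85 and 6.19 per 100 bp. Base composition thus moved with accessibility in the pooled counts, and its part was not tested. The alpha-actinins, the nebulin-type genes and the pair of Des and Vim went the other way. For alpha-actinins, 2 of 2 sarcomeric genes had a region at a median CpG of 3.75, compared with 1 of 2 relatives at 8.54. The PDZ and LIM domain genes had equal shares, and the other families followed the pooled direction.

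**Figure D5:**
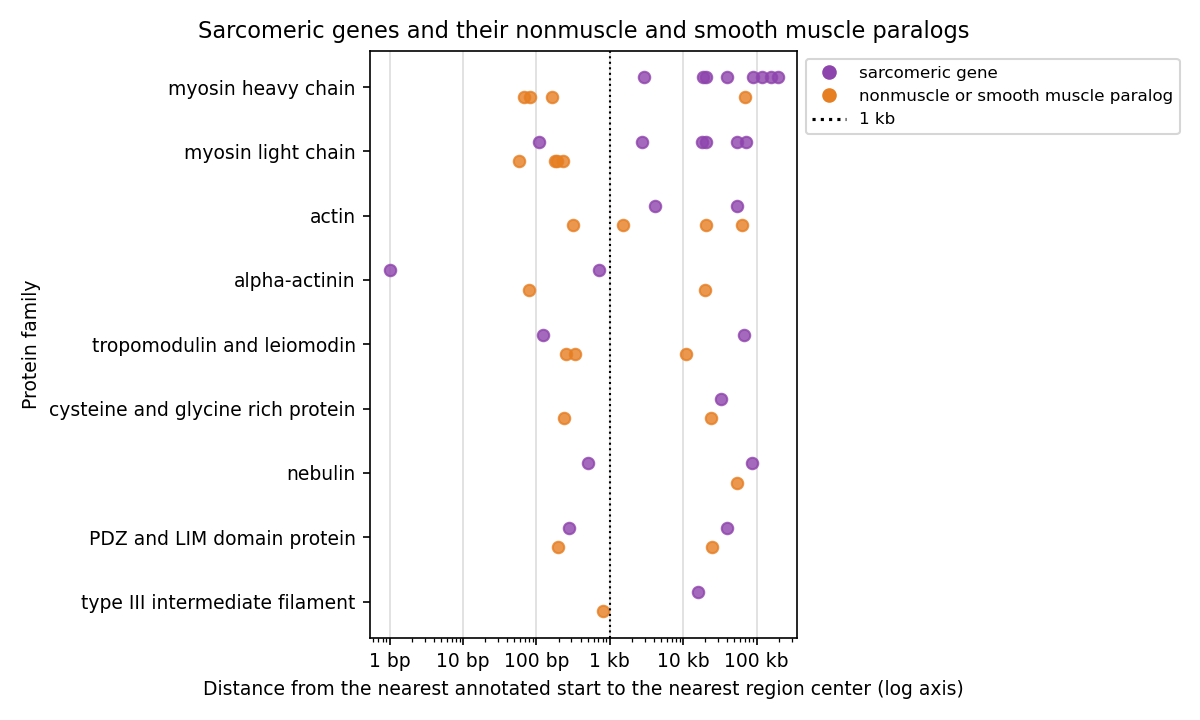
Distance in base pairs (log axis) from the nearest start to the nearest region for sarcomeric genes and for nonmuscle or smooth muscle relatives in 9 protein families. In the myosin heavy chain family, 3 of 4 relatives lie left of the 1 kb line and the 8 sarcomeric genes lie right of it, while both sarcomeric alpha-actinins lie left of it.

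The contrast was clearest for myosin. None of the 8 sarcomeric heavy chain genes had a region at a start, compared with 3 of 4 relatives, at 163 bp for Myh9, 82 bp for Myh10 and 68 bp for Myh14, which are the nonmuscle myosins. Myh1, Myh2, Myh3, Myh4 and Myh8 are neighbors on chromosome 11, and Myh6 and Myh7 are neighbors on chromosome 14. The 8 genes are therefore not independent of one another. Myh11, the smooth muscle heavy chain, lay 70090 bp from a region. Among light chains, 1 of 6 sarcomeric genes (Myl4) had a region at a start, compared with the 4 relatives that could be placed, Myl6, Myl6b, Myl9 and Myl12b. The Myl4 region was the one assigned to Cdc27. Among actins, Actb had a region 317 bp from its start, while Actg1, Actg2 and Acta2 lay 1517, 20645 and 62979 bp from one.

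The other families have few genes each, and some of them split differently. Both sarcomeric alpha-actinins, Actn2 and Actn3, had a region within 1 kb of the start, as did the nonmuscle Actn1 (79 bp), while Actn4 lay 19682 bp from one. The Actn3 region was assigned to Zdhhc24 and did not reach the start itself. Among nebulin-type proteins, Nebl had one and Neb and the nonmuscle relative Lasp1 did not. Among tropomodulins and leiomodins, Lmod2, Tmod2 and Tmod3 had a region at the start, while Tmod1 and the smooth muscle Lmod1 (11006 bp) did not. Of the PDZ and LIM domain genes, Pdlim5 and its relative Pdlim1 (199 bp) had one, and Ldb3 and Pdlim7 (24817 bp) did not. Csrp3 had none at its start, while its relative Csrp2 had one at 238 bp and Csrp1 lay 24068 bp from a region. Vim, the relative of Des, had a region at 795 bp.

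Wider lists place the set among its neighbors in muscle biology. Of 40 further genes of the sarcomere and Z-disc, 20 had an assigned region (50.0%, interval 35.2 to 64.8%, compared with 49.3% of coding genes) and 11 had one within 1 kb of the start, with a median CpG frequency of 2.0. Pdlim3, the muscle relative of Pdlim5, had a region 67 bp from its start. Of 21 genes for regulators of sarcomere genes, 15 had a region (71.4%, interval 50.0 to 86.2%), 13 of them within 1 kb, compared with 49.3% of coding genes. These include Mef2a, Mef2c, Mef2d, Srf and Myocd, the factors and cofactor that read MEF2 and CArG letters. The 26 nonmuscle and smooth muscle genes had a region in 17 cases (65.4%, interval 46.2 to 80.6%, beside the same 49.3%). The interval of the sarcomere and Z-disc genes, 25.2 to 51.6%, overlapped each of these.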

How the data were processed

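The authors prepared ATAC-Seq libraries from 3 control, 3 Isl1-/- and 3 Isl1Cre+/-/Brg1fl/fl samples, grouped by the genotype in their labels, and only the control list was used here. Per the paper's methods and the labels, the authors mapped reads to mm9 with Bowtie2, filtered them with SAMtools, removed duplicates with Picard 1.136, called peaks in each library with MACS, dropped blacklisted regions and kept those shared by replicates with bedtools 2.15. The columns deposited by the authors are region positions in bp, the distance of the region center from the assigned start in bp, a RefSeq transcript and a symbol. No read counts or heights were used. The step that assigned genes to these regions is not given in the sources used here. A fixed shift widens regions, and a shared region keeps the coordinates of 1 library, so edges are approximate.

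Positions were taken as 1-based and rows with equal positions were counted once (30 rows, 29 regions). Coding genes with a curated transcript in the RefSeq table of GRCm38.p6 formed the background of 21027, and that table gave names only. Starts, gene bodies and sequence came from NCBIM37, the build of mm9, with its GENCODE annotation, which held 18115 of them. Of 29 deposited distances, 25 were within 100 bp of a GENCODE start of the gene. Genes named were every gene with a region, the 5 nearest and 3 farthest of those without, those the study names in its text, and family relatives with a region at the start. Other genes of the set are given with their distance alone, and were added after their values were seen. The set, its protein classes, muscle types and lists were chosen with earlier results of these data known. Scripts, tested on simulated data, used Python 3.11.15, numpy 2.4.6, pandas 2.3.3, scipy 1.17.1 and pysam 0.24.0.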

Additional observations from a re-analysis of the deposited data

How the results depend on the processing

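Of 31 values recomputed under another choice, 16 stayed within 1.5 times the count or close to the value given, and 15 moved. When regions narrower than the median were dropped, 9 of the 48 genes had an assigned region (compared with 32.6% of coding genes) and 11 regions remained. The counts by class were then 1 thick filament, 3 thin filament, 0 titin and M-band and 5 Z-disc genes. By muscle type they were 1 heart, 4 heart and skeletal, 1 skeletal and 3 broad genes. The Z-disc and broad counts stayed within 1.5 times those given, and the others moved. Counting any region within 1 kb of an annotated start gave 11 genes with a region. The median CpG frequency was 1.20 per 100 bp when the lowest start of each gene was taken. In the window from 1000 bases before to 100 after the start, motif shares were 56.2% for the TATA box, 31.2% for MEF2, 31.2% for GATA, 100% for the E-box and 64.6% for MCAT, compared with 45.5%, 14.8%, 40.6%, 99.0% and 43.8% of coding genes. No paired analysis was possible because the control list is shared by its libraries and no value carries a replicate number, and for the same reason no library could be left out. Depth is unknown, so weak sites may be missing from the list.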
